A study of Mus musculus with 6 samples.

Results

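The genes described here are 8 members of the complement system in the mouse substantia nigra: C1qa, C1qb and C1qc, the components C3 and C4b, the receptors C3ar1 and C5ar1, and Serping1. They were taken by symbol from the deposited table, which holds 19251 genes, and all 8 were found there and passed the filter on low counts. The choice was made with earlier results of the same feeding comparison known, so their levels and fold changes under fasting are descriptions and are not tested here. Both groups were C57BL/6 mice with the genotype label rAAV-A53T-aSynuclein, where rAAV is an engineered adeno-associated virus that delivers a gene, here the A53T form of alpha-synuclein that is used to model Parkinson's disease. The ad libitum group (3 libraries) ate freely for 10 weeks, and the intermittent fasting group (3 libraries) was fasted for 24 hours 3 times a week for 10 weeks. Both diets began 2 weeks after surgery, and the ad libitum mice were moved between cages at the same times. All libraries therefore came from mice carrying the vector, and brains without it were not analysed here. The promoter of the vector, the injected side and the interval between the last fast and collection are not stated in the labels. Whether the libraries of a group came from separate mice is not stated either, so errors are the spread between libraries, which may be partly technical.

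Complement is a cascade of blood and tissue proteins that marks targets for removal. C1q, built from the A, B and C chains, recognises antibodies, dying cells and synapses, and its attached proteases cut C4 and C2, which leads to the cleavage of C3. Fragments of C3 bind to the marked surface and are read by phagocytes through complement receptor 3, while the small fragments C3a and C5a signal through C3ar1 and C5ar1. In the brain, microglia are the main source of C1q, and tagged synapses and debris are taken up by microglia.

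Polyadenylated RNA was sequenced to between 42990234 and 48179706 estimated counts per library. Levels are in CPM, that is counts scaled by the size of the library and its TMM factor. Log2 fold changes come from edgeR as fasting minus ad libitum, with standard errors (SE). The libraries were uneven: ad libitum replicate 1 was closer to the fasting libraries (chi-square per degree of freedom 28.7 to 31.0) than to ad libitum replicates 3 (45.4) and 2 (77.6). The closest library to ad libitum replicate 3 was fasting replicate 2 (30.3), then ad libitum replicate 2 (42.8) and fasting replicate 3 (43.6). Between fasting libraries the values were 8.17 to 19.6. Ad libitum replicate 2 had Chat, a gene of cholinergic neurons, at 22.9 CPM against 0.341 to 2.14 CPM elsewhere. Pmch, a gene of hypothalamic neurons, was at 22.0, 432 and 1.18 CPM in ad libitum replicates 1, 2 and 3 and at 62.2, 125 and 115 CPM under fasting. The dopaminergic markers Th (86.3 to 236 CPM) and Slc6a3 (180 to 653 CPM) were present in every library and highest in ad libitum replicate 3.

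All 3 C1q chain genes were lower in every fasting library than in any ad libitum library. C1qa (ENSMUSG00000036887) was at 37.6, 44.6 and 40.4 CPM in ad libitum replicates 1, 2 and 3, and at 24.7, 25.2 and 25.3 CPM in fasting replicates 1, 2 and 3. The groups did not overlap, and the fasting libraries lay within 1 CPM of each other. The means were 40.9 ± 3.53 and 25.1 ± 0.323 CPM (SD, n = 3). The log2 fold change was -0.71 (SE 0.07), or 1.63-fold lower under fasting. C1qb (ENSMUSG00000036905) was at 41.6, 50.7 and 47.7 CPM ad libitum, against 27.0, 26.8 and 28.5 CPM under fasting. Its groups stood apart as well, with a log2 fold change of -0.76 (SE 0.08), or 1.70-fold lower. C1qc (ENSMUSG00000036896) was at 31.5, 41.6 and 35.3 CPM ad libitum, against 24.2, 21.9 and 23.9 CPM under fasting, a log2 fold change of -0.63 (SE 0.11). Its lowest ad libitum library was 1.30 times its highest fasting library, against 1.49 times for C1qa and 1.46 times for C1qb.

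The genes of the 3 chains are neighbours, in the order C1qb, C1qc and C1qa with no protein-coding gene between them in the RefSeq annotation of GRCm38.p6. RefSeq promoter windows were at hand for 5 of the 8 genes, and those of C1qb and C1qc are shown because the chains moved together across libraries. Each is the 250 bases before the annotated start, 5′ to 3′ on the minus strand of chromosome 4 in GRCm38.p6 (chr4:136886201-136886450 for C1qb and chr4:136892915-136893164 for C1qc), and capitals mark the core letters GAGGAA of the myeloid factor PU.1 on either strand.
C1qb: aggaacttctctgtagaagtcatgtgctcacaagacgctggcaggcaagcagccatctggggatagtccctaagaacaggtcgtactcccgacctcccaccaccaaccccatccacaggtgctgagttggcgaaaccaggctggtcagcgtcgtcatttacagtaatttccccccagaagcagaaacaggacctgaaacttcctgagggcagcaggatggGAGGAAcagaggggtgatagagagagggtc
C1qc: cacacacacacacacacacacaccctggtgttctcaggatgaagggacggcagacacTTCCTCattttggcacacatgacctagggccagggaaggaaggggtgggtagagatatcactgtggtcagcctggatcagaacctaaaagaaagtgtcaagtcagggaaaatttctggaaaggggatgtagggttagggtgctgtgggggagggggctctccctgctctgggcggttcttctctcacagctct
The match in C1qb lies 30 to 25 bases before the start, and the match in C1qc, on the opposite strand, 193 to 188 bases before it. The windows of C3, C3ar1 and C5ar1 held no match, and 23.3% of the 32851 windows of this length in the table held at least 1. The C/EBP letters TTNNGNAA were found in the windows of C1qc, C3 and C5ar1 (36.8% of all windows), with 3 positions in C3 between 70 and 38 bases before the start. The TATA letters TATAAA were found in that of C3ar1 alone (12.4%). Both strands were searched, the 3 kinds of match did not overlap each other, and a match is a description of the letters, not evidence of binding.

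The chains kept nearly the same proportions to each other in all libraries. Summed, they came to 111, 137 and 123 CPM ad libitum and to 76.0, 73.9 and 77.7 CPM under fasting. C1qa made up 33.1% ± 0.773 of this sum ad libitum and 33.1% ± 0.885 under fasting (SD, n = 3). C1qb made up 37.7% ± 0.82 and 36.2% ± 0.551, with every fasting library below every ad libitum library, and C1qc 29.2% ± 1.08 and 30.7% ± 1.14, with overlap. The shift in the share of C1qb was thus 1.55 percentage points, beside a sum that was 47.8 CPM lower.

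The cleaved components C4b and C3 were also lower in every fasting library, with wider spread among the ad libitum libraries. C4b (ENSMUSG00000073418) encodes complement C4, which C1s cuts and which then attaches to the target. It was at 82.3, 116 and 130 CPM ad libitum, against 61.0, 54.5 and 63.1 CPM under fasting, a log2 fold change of -0.88 (SE 0.17), the lowest of the 8. The groups did not overlap, and the ad libitum libraries varied by 22.5% (SD over mean) against 7.58% under fasting. Of the transcript sequence of C4b, in words of 25 bases, 53.9% also occurs in other genes, chiefly C4a, so reads could be split between both and the value is uncertain. The counts assigned to C4a came to 1.42, 2.58 and 2.05 CPM ad libitum and 1.75, 1.59 and 1.68 CPM under fasting, with overlap. C3 (ENSMUSG00000024164), where the pathways of activation meet, was at 3.41, 2.68 and 4.06 CPM ad libitum and 2.50, 2.27 and 2.13 CPM under fasting. The groups were apart by a narrow margin, the lowest ad libitum library being 1.07 times the highest fasting one, with a log2 fold change of -0.56 (SE 0.18).

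Of the anaphylatoxin receptor genes, C3ar1 was lower in every fasting library and C5ar1 was not. C3ar1 (ENSMUSG00000040552), the receptor for C3a, was at 3.26, 3.26 and 3.14 CPM ad libitum, against 2.32, 2.03 and 2.17 CPM under fasting, a log2 fold change of -0.57 (SE 0.13). Unlike the C1q chains, C4b, C3 and Serping1, it was steadier among ad libitum libraries (SD 2.15% of the mean) than among fasting libraries (6.55%). C5ar1 (ENSMUSG00000049130), the receptor for C5a, rested on only 39, 39 and 29 counts ad libitum and on 6, 32 and 31 under fasting. In CPM these are 0.826, 0.805 and 0.620 against 0.136, 0.740 and 0.661, so the groups overlapped and fasting replicate 1 alone was low. Its log2 fold change of -0.55 had an SE of 0.52. It was -0.11 without fasting replicate 1, -0.90 without fasting replicate 2 and -0.84 with limma-voom.

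The inhibitor gene Serping1 (ENSMUSG00000023224) showed the smallest difference of the 8. It encodes C1 inhibitor, which removes the proteases C1r and C1s from C1q. It was at 4.68, 6.84 and 8.27 CPM ad libitum, against 5.30, 6.36 and 5.48 CPM under fasting. The groups overlapped, since ad libitum replicate 1 was the lowest of all 6 libraries and ad libitum replicate 3 the highest, and the log2 fold change of -0.21 (SE 0.21) was no larger than its error. Leaving out ad libitum replicate 3 gave -0.01, and leaving out ad libitum replicate 1 gave -0.40.

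**Figure D1:**
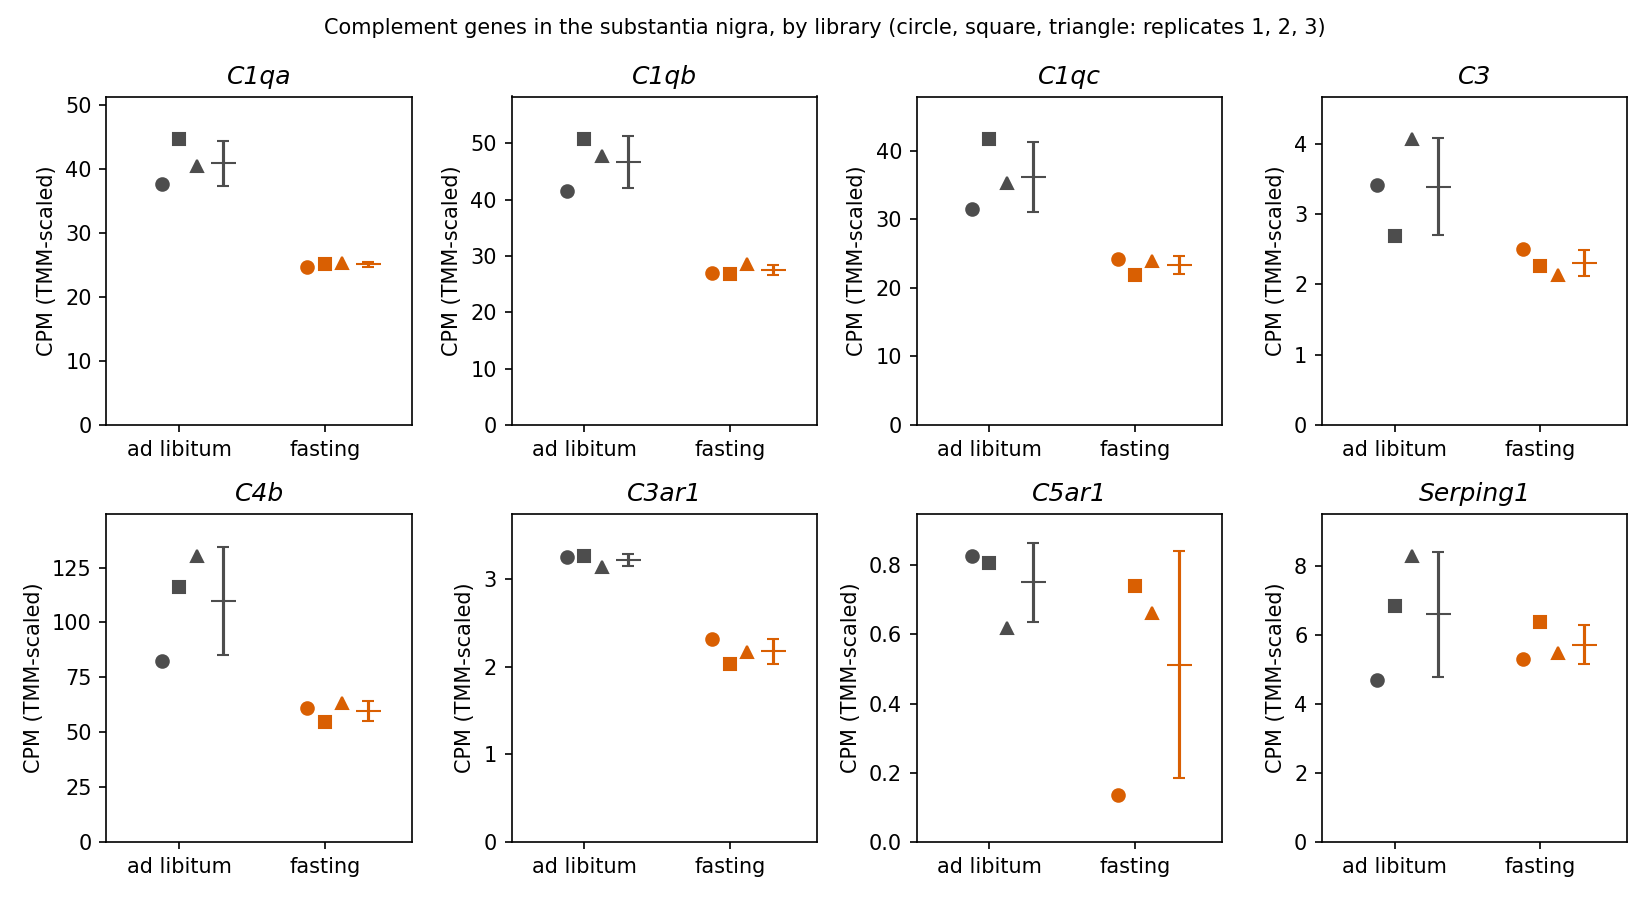
Level of each of the 8 genes in CPM after TMM scaling (vertical axes from 0), for 3 ad libitum (grey) and 3 fasting (orange) libraries; symbols are replicates and the bar beside them is the mean ± SD. The groups are apart for C1qa, C1qb, C1qc, C3, C4b and C3ar1 and overlap for C5ar1, where fasting replicate 1 is at 0.136 CPM, and for Serping1.

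Counted together, 8 of 8 genes had a negative log2 fold change, as did 50.9% of all 19109 genes tested, with a median of -0.60 beside -0.005 over all genes. In 6 of the 8 the groups did not overlap, with fasting lower, against 15% of all genes tested. By edgeR, 2 of the 8, C1qa and C1qb, had an adjusted p below 0.05, as had 0.497% of all genes tested. DESeq2 gave 5 of the 8, adding C1qc, C4b and C3ar1, against 7.26% of all genes it tested. Because the genes were chosen from this comparison, nothing is read from these counts. The edgeR count was 4 when ad libitum replicate 1 was left out (C1qa, C1qb, C1qc and C4b), where 6.18% of all genes were called. It was 0 without ad libitum replicate 3, where 0.00521% of all genes were called, and 0 without fasting replicates 1, 2 or 3, where 0%, 0.354% and 0% were. The fold changes moved little by comparison: with each library left out in turn, C1qa stayed between -0.76 and -0.64, C1qb between -0.84 and -0.71, C1qc between -0.72 and -0.52, C4b between -1.05 and -0.74, C3ar1 between -0.62 and -0.52, and C3 between -0.70 and -0.41.

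Per transcript length, the C1q chains were the most abundant of the 8. In CPM per kb of the longest GENCODE transcript, the ad libitum means were 42.9 ± 4.28 for C1qb, 39.3 ± 3.39 for C1qa and 30.0 ± 4.27 for C1qc (SD, n = 3). C4b followed at 20.4 ± 4.57 and Serping1 at 3.73 ± 1.02. C3ar1 was at 0.748 ± 0.0161, C3 at 0.659 ± 0.134 and C5ar1 at 0.295 ± 0.0447. The order was the same under fasting, from C1qb at 25.2 ± 0.834 down to C5ar1 at 0.202 ± 0.129. C1qb exceeded C1qa in all 6 libraries, but by only 1.02 to 1.13 times, and their ad libitum ranges overlapped. C3ar1 exceeded C3 in 5 of 6 libraries, their ranges overlapped in both groups, and their order is therefore not resolved. The other neighbours in the order had separate ranges in both groups. Per coding length in place of transcript length, C3 (0.678) ranked below C5ar1 (0.713 CPM per coding kb ad libitum), so the order of the lowest genes depends on the length used.

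**Figure D2:**
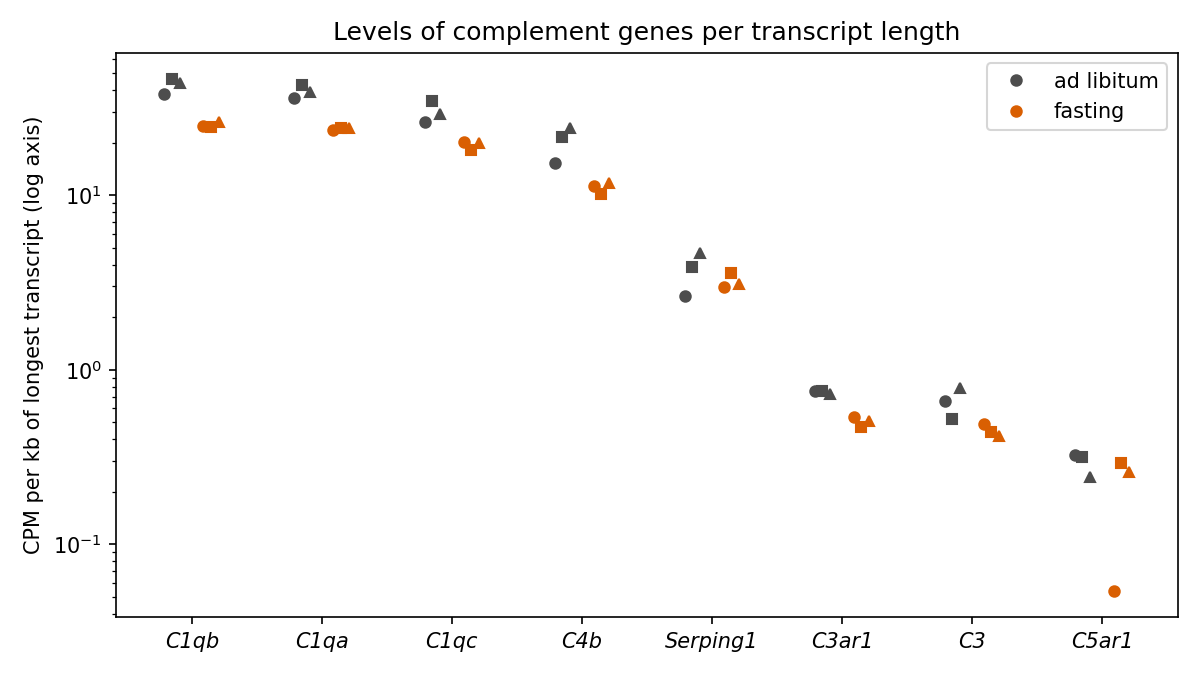
Level of each gene in CPM per kb of its longest annotated transcript (log axis), ordered by the ad libitum mean; symbols are the 3 replicates, grey for ad libitum and orange for fasting. C1qb, C1qa and C1qc lead at 30.0 to 42.9 CPM per kb in the ad libitum means, and C5ar1 is lowest at 0.295.

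Markers of microglia moved with the C1q genes. All 15 microglia markers listed, among them Tmem119, P2ry12 and Cx3cr1, were detected and lower in every fasting library, against 15% of all genes tested. Their median log2 fold change was -0.61. Of the 15, 1, Fcrls, had an edgeR adjusted p below 0.05, as had 0.497% of all genes tested. The summed level of the 15 markers was 381 to 530 CPM ad libitum and 305 to 306 CPM under fasting. Relative to these markers the C1q chains hardly differed between diets. The mean log2 CPM of the chains exceeded that of the markers by 1.30, 1.16 and 1.04 in ad libitum replicates 1, 2 and 3, and by 1.09, 1.10 and 1.16 in fasting replicates 1, 2 and 3. The group means, 1.16 ± 0.127 and 1.12 ± 0.0417 (SD, n = 3), differed by -0.05 on the log2 scale, within the spread of the libraries, and the groups overlapped. In such bulk tissue, fewer microglia and less RNA per microglial cell cannot be told apart.

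The same ratio separated the other genes. On the log2 scale, C3ar1 relative to the microglia markers was at -2.18, -2.63 and -2.64 ad libitum and -2.33, -2.47 and -2.38 under fasting, with overlap. C3 was at -2.11, -2.91 and -2.27 against -2.23, -2.32 and -2.41, also with overlap. C5ar1 was at -4.10, -4.59 and -4.90 against -6.05, -3.88 and -4.03, with overlap. C4b was at 2.46, 2.51 and 2.71 ad libitum and 2.36, 2.25 and 2.45 under fasting, lower by 0.21 in the means. Its fasting libraries were all lower even against these markers, but by a narrow margin. Fasting replicate 3 was at 2.454 and ad libitum replicate 1 at 2.463. Serping1 relative to the markers was at -1.66, -1.57 and -1.26 ad libitum and -1.16, -0.85 and -1.06 under fasting. Every fasting library was higher in this ratio, with a difference of 0.47 in the means. The level of Serping1 was itself not higher under fasting (log2 fold change -0.21, groups overlapping). The ratio was higher because the mean log2 CPM of the markers differed by -0.65. These ratios use the same comparison as the choice of genes and were not tested.

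**Figure D3:**
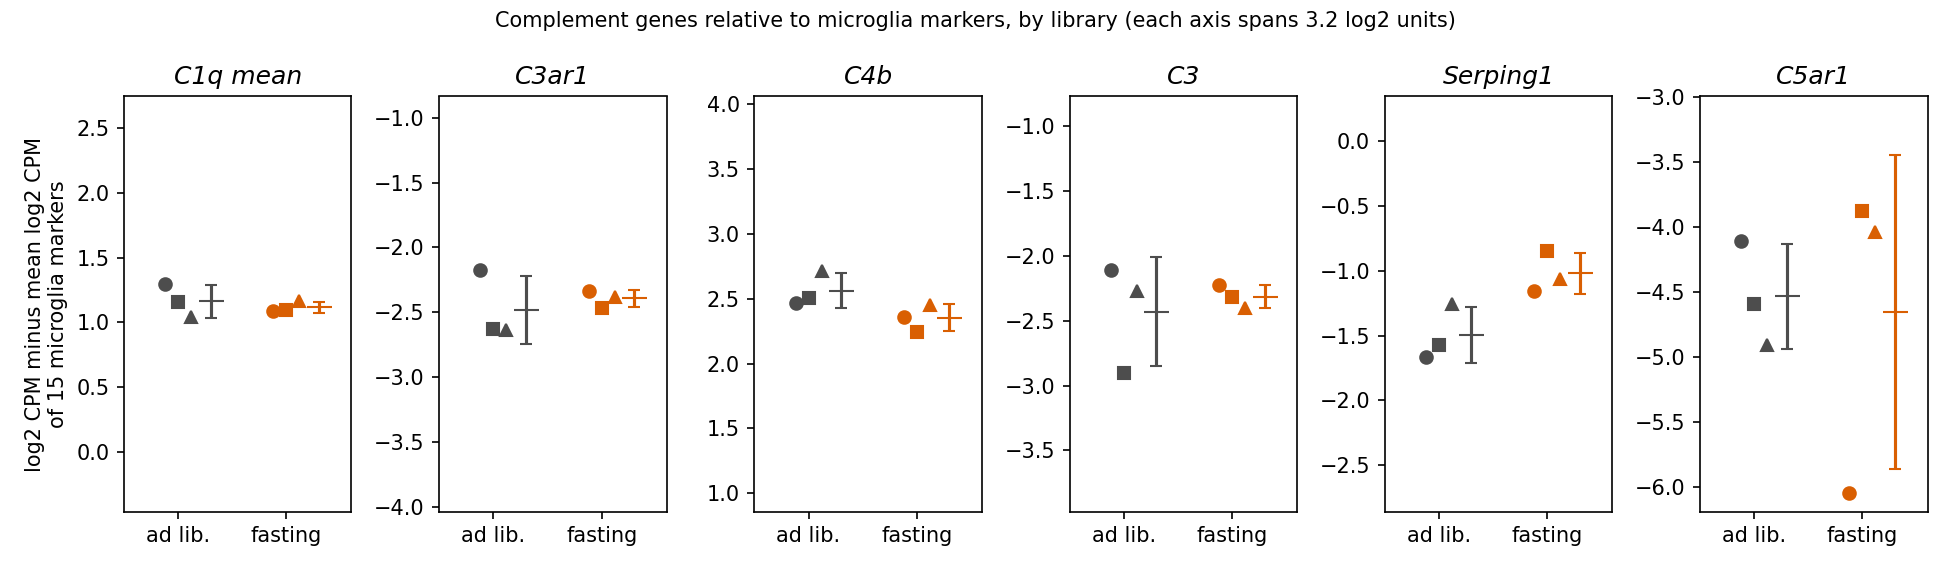
Log2 CPM of the C1q chains (mean of 3) and of 5 other complement genes minus the mean log2 CPM of 15 microglia markers, for each library (grey ad libitum, orange fasting, symbols as replicates, bar mean ± SD); every panel spans the same number of log2 units. The C1q groups overlap (means 1.16 and 1.12). Relative to the markers, the fasting libraries are all lower for C4b, by a narrow margin, and all higher for Serping1.

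Other cell type markers moved in part with the complement genes. Border macrophages, which line vessels and meninges and also make C1q, had 8 of 8 markers with a negative log2 fold change, beside 50.9% of all genes. In 5 of the 8 the groups overlapped, and in 3 every fasting library was lower, against 15% of all genes. The summed level of the 8 markers was 24.7 to 39.7 CPM ad libitum and 17.2 to 20.1 CPM under fasting. Neutrophils and monocytes carry C5ar1 in blood, and their 6 measured markers summed to 3.51 to 5.81 CPM against 4.39 to 5.07 CPM, with overlap, and S100a8 was at or below 0.321 CPM in every library. Lymphocyte markers summed to 1.02 to 1.71 CPM in 5 libraries and to 15.0 CPM in ad libitum replicate 2, of which Cd4 made 14.1 CPM.

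Astrocytes and oligodendrocytes are known to express C4b. The 10 astrocyte markers had a median log2 fold change of -0.16, with 7 below 0 and 3 above. In 3 every fasting library was lower and in 1 higher, against 15% and 12.5% of all genes. In the other 6 the groups overlapped. Their summed level was 3369 to 4439 CPM ad libitum and 3046 to 3457 CPM under fasting, with overlap. They did not move together: Fgfr3 was at 0.27, with every fasting library higher, and Gjb6 at 0.32, whereas Aqp4 was at -1.01. Gfap, an intermediate filament gene of astrocytes, was at 234, 507 and 699 CPM ad libitum and 137, 187 and 181 CPM under fasting. Its ad libitum libraries stood in the same order as for C4b and Serping1. That order is not particular to Gfap: Aqp4 and the border macrophage, fibroblast and mural cell, and erythroid sums had it too. The 16 reactive astrocyte genes summed to 387, 689 and 883 CPM against 308, 346 and 355 CPM, but without Gfap the other 15 came to 153, 182 and 183 against 171, 160 and 174 CPM, with overlap. Of the 16, every fasting library was lower in 5 and higher in 1, against 15% and 12.5% of all genes. In 10 the groups overlapped. The 10 oligodendrocyte markers were all below 0 in log2 fold change (median -0.57), as were 50.9% of all genes. Of the 10, 1, Ugt8a, had an edgeR adjusted p below 0.05, as had 0.497% of all genes tested. In 9 of the 10 every fasting library was lower, against 15% of all genes. The 10 markers summed to 14054 to 19120 against 9886 to 12393 CPM. Fibroblast and mural cell markers, from cells that make Serping1 and C3, summed to 246, 263 and 318 CPM ad libitum and 201, 222 and 214 CPM under fasting. Without the pericyte gene Rgs5 the sums were 109, 136 and 210 against 111, 125 and 115 CPM, with overlap. In 3 of the 10 genes every fasting library was lower, against 15% of all genes. In 7 the groups overlapped, and Dcn and Lum lay above 0. Erythroid genes, a sign of blood in the tissue, summed to 430 to 1737 against 255 to 657 CPM, and choroid plexus and ependymal markers to 29.0 to 115 against 28.9 to 54.3 CPM, both with overlap. Within the latter list the ependymal genes Ccdc153 (0.148, 0.413 and 0.0641 against 4.68, 0.855 and 6.78 CPM) and Tmem212 (0.0423, 0.103 and 0.0214 against 2.16, 0.324 and 2.24 CPM) were higher in every fasting library. The choroid plexus gene Kcnj13 was lower in every fasting library (0.360, 1.59 and 0.620 against 0.0682, 0.185 and 0.149 CPM). Dopaminergic neuron markers summed to 893 to 2240 against 862 to 1581 CPM, with overlap. The part of these cells in the complement values was not tested.

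The genes whose levels followed C1q most closely over the 6 libraries included the complement receptor gene Itgam. Closeness was the root mean square difference, in log2 CPM centred on each gene's own mean, from the mean profile of the 3 chains, over 10387 genes of at least 10 CPM. Among the 10 closest were Tcn2, Myo1e, Dubr, Gm42756, Selplg, Unc93b1, Frmd4b, Itgam and Nckap1l. Tcn2, which encodes the vitamin B12 carrier transcobalamin, was at 20.4, 26.7 and 22.9 CPM ad libitum and 13.6, 15.0 and 14.8 CPM under fasting. Itgam encodes the alpha chain of complement receptor 3, Selplg a selectin ligand of white blood cells, Unc93b1 the escort of nucleic acid-sensing Toll-like receptors, and Nckap1l an actin regulator of blood cells. Of the other complement genes described, C3ar1 was nearest to the C1q profile (0.12 log2 units, with 0.664% of genes of at least 10 CPM closer), then C4b (0.17 and 2.76%) and C3 (0.26 and 9.81%). Serping1 (0.34 and 31.4%) was less near, and C5ar1 (0.71 and 97.7%) was far from it, with only 6 counts in fasting replicate 1. C3ar1, C3, Serping1 and C5ar1 lay below 10 CPM in every library, so their distances hold more counting noise than those of the genes they are set against.

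**Figure D4:**
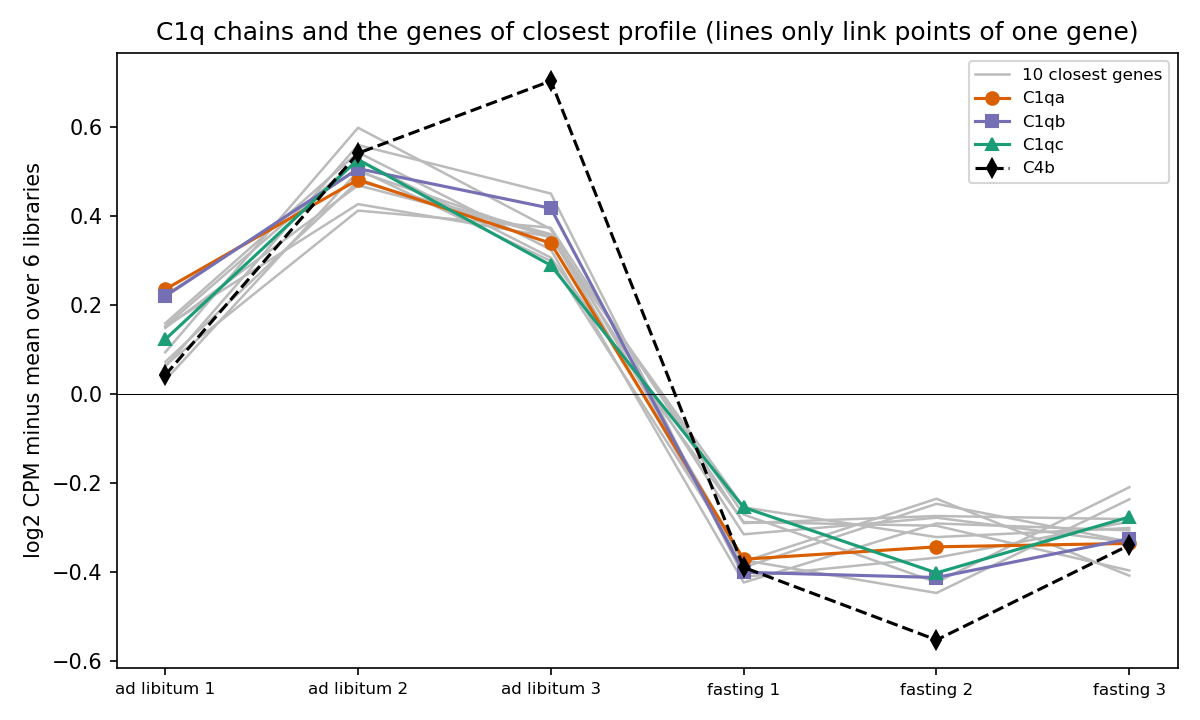
Log2 CPM of C1qa, C1qb, C1qc, C4b and the 10 genes of closest profile (grey), each minus its own mean over the 6 libraries named on the horizontal axis; lines link the points of 1 gene and replicates have no order. The chains peak in ad libitum replicate 2, as do the grey genes, which were chosen for closeness to the chains over these same libraries. C4b is highest in ad libitum replicate 3.

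The rest of the pathway was examined as 56 genes listed by role, of which 41 were measured and 39 passed the filter. By edgeR 0 of these 39 had an adjusted p below 0.05 (smallest 0.0638), and 0 did by limma-voom, which called 0.167% of all genes. DESeq2 called 5 of the 41 it tested, beside 7.26% of all genes. At an unadjusted edgeR p below 0.05 there were 9 lower and 5 higher, that is 9 of 39 and 5 of 39 beside 11.6% and 8.74% of all genes. Their median log2 fold change was -0.09, and in 12 the groups were apart with fasting lower and in 6 with fasting higher, against 15% and 12.5% of all genes. The 5 genes called by DESeq2 are Itgam, Itgb2, Megf10 and Calr, all lower, and Sez6l, higher.

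Among these genes, those for receptors lay on the side of the C1q chains. The log2 fold changes of all 9 receptor genes tested were negative (median -0.29), as were those of 50.9% of all genes. Lrp1 (-0.06, SE 0.06) and Itgax (-0.12, SE 0.22) were near 0, and their groups overlapped. Cr2 had the largest difference (-1.31, SE 0.36), at only 0.213 to 0.785 CPM. Itgam, the alpha chain of complement receptor 3, was at 32.0 ± 5.55 CPM ad libitum and 19.4 ± 0.852 CPM under fasting (SD, n = 3), with a log2 difference of -0.73 and an SE of 0.13 (edgeR adjusted p = 0.0638). Its partner chain Itgb2 was at -0.62 (SE 0.16, edgeR adjusted p = 0.103). Megf10, an engulfment receptor of astrocytes that binds C1q, was at 83.8 ± 12.4 CPM ad libitum and 54.7 ± 5.06 CPM under fasting (-0.62, SE 0.12, edgeR adjusted p = 0.0685). Calr, the chaperone calreticulin that also acts as a C1q receptor at the cell surface, was at -0.28 (SE 0.06, edgeR adjusted p = 0.0755). C5ar2, the second C5a receptor, is the neighbour of C5ar1 in the RefSeq annotation. It was at 1.88, 2.15 and 2.52 CPM ad libitum and 1.80, 1.76 and 1.79 CPM under fasting. Unlike those of C5ar1, the groups of C5ar2 did not overlap, but by a narrow margin. The log2 fold change of C5ar2 was -0.29 (SE 0.16), beside -0.55 (SE 0.52) for C5ar1.

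Genes of initiation and regulation showed no common direction, whereas most genes of the alternative and terminal list lay above 0. Of 9 initiation genes 6 were below 0, with a median of -0.09. The protease gene C1s1 was at -0.38 (SE 0.22), Fcna at -0.47 (SE 0.31) and Colec11 at 0.37 (SE 0.30), each below 1.3 CPM in every library. Of 16 regulators 8 were below 0, with a median of 0.02. Vitronectin, Vtn, which blocks the terminal complex, was at 56.6 ± 1.47 CPM ad libitum and 49.6 ± 1.54 CPM under fasting (-0.19, SE 0.05, edgeR adjusted p = 0.110). The neuronal genes Csmd1 and Sez6l, whose proteins carry complement control domains, were at 0.19 (SE 0.05, edgeR adjusted p = 0.101) and 0.43 (SE 0.11, edgeR adjusted p = 0.0974). Of 5 alternative and terminal genes 4 were above 0, as were 9386 of all 19109 genes tested. Of these, Cfp was near 0 (0.05, SE 0.13), at 4.49 CPM ad libitum and 4.66 CPM under fasting in the means, with overlap. The rest were at low levels. Hc, which encodes complement C5, the source of the C5ar1 ligand, was at 0.191, 0.021 and 0.0641 CPM ad libitum and 0.455, 0.301 and 0.661 CPM under fasting (2.34, SE 0.64, edgeR adjusted p = 0.116). C8g was at 0.76 (SE 0.24, edgeR adjusted p = 0.144) and C7 at 0.63 (SE 0.55).

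**Figure D5:**
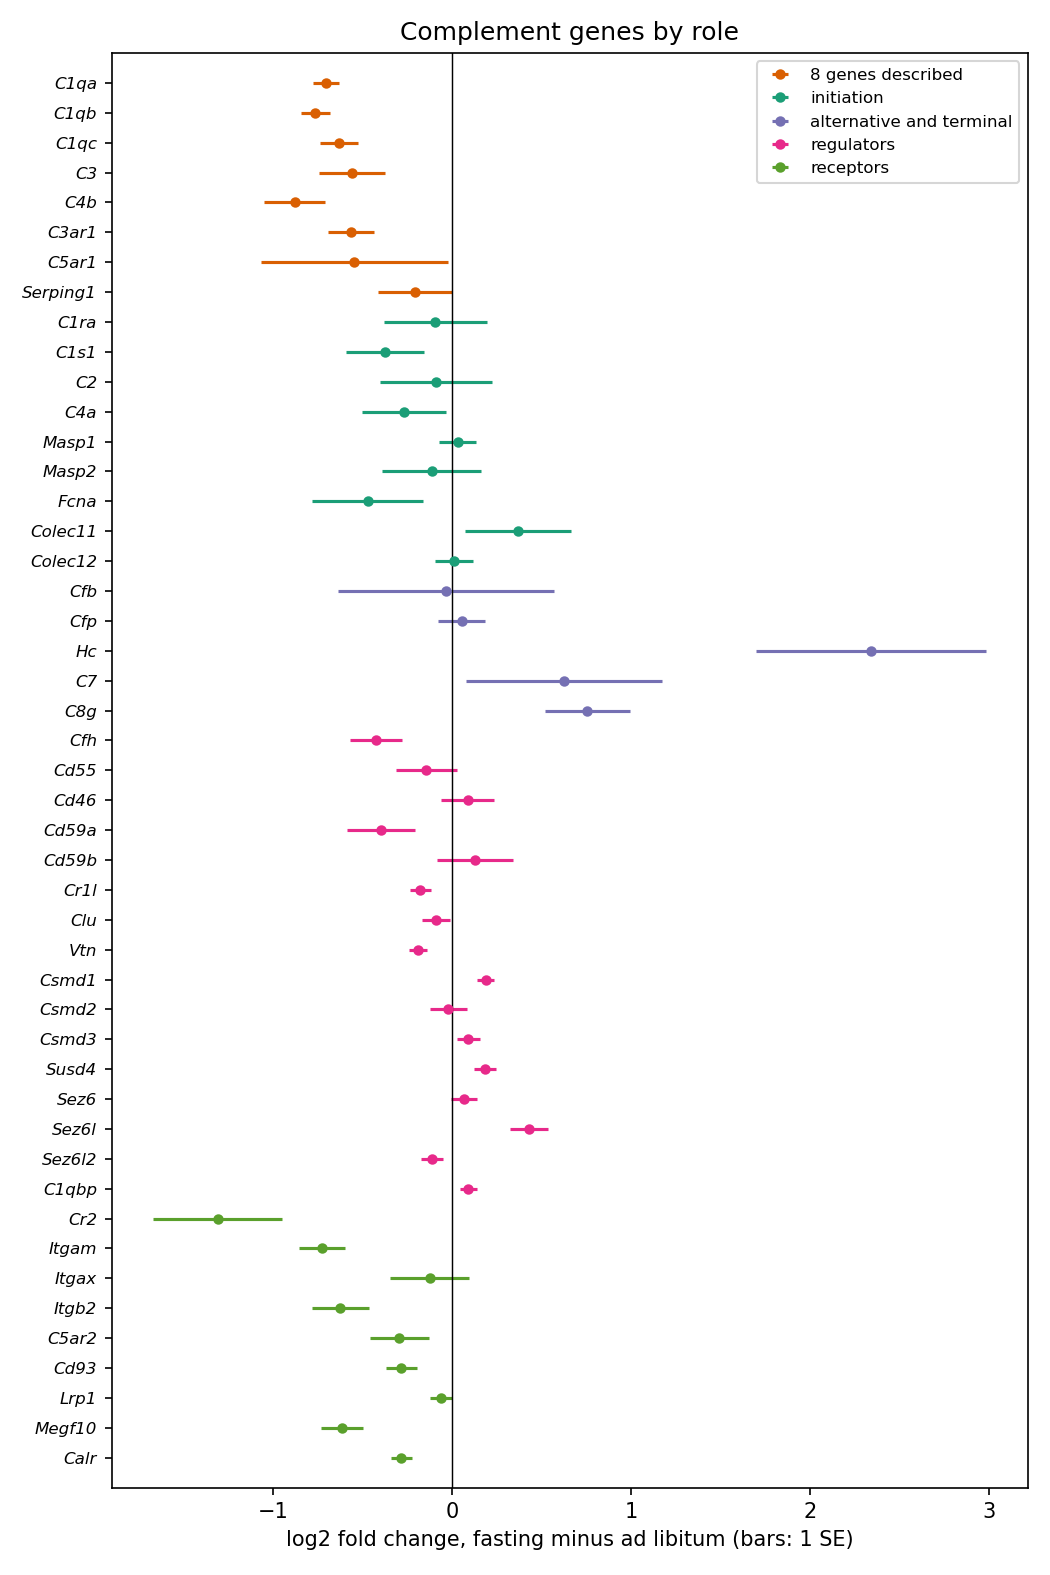
Log2 fold change, fasting minus ad libitum, with bars of 1 SE, for the 8 genes described (orange) and 39 other complement genes by role. The 9 receptor genes are all below 0, whereas initiation and regulator genes lie on both sides of 0. Of the 5 alternative and terminal genes, 4 are above 0, with Cfp near 0.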

How the data were processed

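Polyadenylated RNA from substantia nigra lysate was extracted with a lipid tissue kit and made into strand-marking libraries, per the labels' protocols. Estimated counts for each gene were deposited by the authors in 1 table, as whole numbers not scaled between libraries. Salmon and DESeq2 1.40.2 are named with GRCm39 (mm39), per the submitters' processing notes, with no role or order. The sources used here do not give the Salmon version, the annotation release or the strand setting.

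Columns were matched to libraries by the labels' descriptions, and 0 columns of sample values were left unused. Rounding changed 0 values. Genes were filtered with filterByExpr, which left 19109 of 19251 tested, scaled with TMM and fitted with the quasi-likelihood test of edgeR 4.0.16 (R 4.3.3, robust shrinkage, no covariate, two-sided), with Benjamini-Hochberg adjustment over all genes and a threshold of 0.05. SE is the absolute log2 fold change over the root of the F statistic. Log2 CPM used a prior count of 2. The fits were tested on simulated data. No 2 libraries agreed within counting noise (smallest chi-square per degree of freedom 8.17).

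The genes and lists were chosen with earlier results of these data known. Besides the 8, genes are named as up to 3 of smallest p in each list where none was called, and the 10 closest to C1q in profile, and some of these genes are not reported here. Other genes named, such as Itgb2, C4a, C5ar2, Gfap, Fgfr3, Rgs5, Ccdc153, Fcrls, Cd4, Pmch and Chat, were chosen after their values were seen. The sums without Gfap or Rgs5, each the highest gene of its list, were also added after the data were seen. Lengths and shared sequence come from GENCODE M21 and promoter windows from RefSeq, both on GRCm38, another build than that named in the notes. NF-kB, interferon response and MAF motifs were also searched in the windows and, after their matches were seen, left out. Alternatives were RLE or upper quartile scaling, DESeq2 1.42.0, limma-voom (limma 3.58.1), other filters, no robust shrinkage, a replicate block and leaving out each library.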

Additional observations from a re-analysis of the deposited data

How the results depend on the processing

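The fold changes of the 8 genes kept their sign in all 111 values from 14 alternative fits, C5ar1 having no value where a mean count of 50 was required, and each moved by less than the SD between libraries. The number of genes with an adjusted p below 0.05 depended on the setting far more. Over all genes it was 95, and it was 1395 with DESeq2, 32 with limma-voom, 9 without robust shrinkage and 0 to 1187 with 1 library left out. Of the 8 genes it was 2, and it was 5 with DESeq2, 0 without robust shrinkage and 0 to 4 with 1 library left out. Of the other complement genes it was 0, and it was 5 with DESeq2 and 0 to 7 with 1 library left out. Calls were higher under fasting in 29.5% of cases and in 53.1% with limma-voom and 77.8% without robust shrinkage. The median of the other complement genes was -0.09 and ran from -0.14 to -0.025 with 1 library left out. The C1q to microglia difference of -0.05 ran from -0.11 to 0.02, the latter without ad libitum replicate 1. The cause of these differences between settings was not tested.

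Whether the replicate numbers pair the libraries was not settled. The deviations of same-numbered libraries correlated at 0.21, -0.04 and -0.11, and those of differently numbered libraries at -0.14 to 0.19. Deviations from a mean of 3 libraries depend on each other, so these values cannot exclude pairing. With the replicate block edgeR called 285 genes (1.49%), among them the same 2 of the 8, C1qa and C1qb, and 3 other complement genes, Sez6l, Itgam and Megf10. Depth limits C5ar1, with 6 to 39 counts per library, and Hc. The share of C4b sequence found in other genes fell from 53.9% in words of 25 bases to 48.3% in words of 31 bases, lengths chosen after seeing the data, with C4a the main sharer at each length from 25 to 31.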

Other observations

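Genes that share the C1q domain but lie outside complement did not follow the C1q chains. Of 16 tested, 9 were below 0 and 7 above 0 in log2 fold change (median -0.02), and 0 had an edgeR adjusted p below 0.05, with 1, higher, at an unadjusted p below 0.05, beside 8.74% of all genes. That gene was Cbln4, a cerebellin that organises synapses, at 18.9, 18.5 and 27.7 CPM ad libitum and 36.3, 36.9 and 33.3 CPM under fasting (log2 fold change 0.71, SE 0.16, edgeR adjusted p = 0.0916). Its relative Cbln1 was at 11.2, 37.2 and 28.5 CPM against 60.9, 50.1 and 50.1 CPM (1.07, SE 0.44, edgeR adjusted p = 0.259), with every fasting library higher. C1qtnf7 was at -0.92 (SE 0.40) and below 1 CPM in every library.

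Transcription factor genes of myeloid cells lay below 0 in log2 fold change beside C1q. All 8 were negative (median -0.53), as were 50.9% of all genes, and 0 had an edgeR adjusted p below 0.05, with 5 at an unadjusted p below 0.05, beside 11.6% of all genes. In 4 of the 8 every fasting library was lower, against 15% of all genes. In the other 4, Irf8, Cebpa, Cebpb and Runx1, the groups overlapped. Sall1, a factor of microglial identity, was at 36.2 ± 5.40 and 24.4 ± 1.36 CPM (SD, n = 3; -0.57, SE 0.11, edgeR adjusted p = 0.0708). Maf, another factor of the lineage, was at -0.73 (SE 0.22). Spi1, which encodes PU.1, was at 2.63, 4.36 and 3.98 CPM ad libitum and 2.34, 2.59 and 2.52 CPM under fasting (-0.56, SE 0.21, edgeR adjusted p = 0.196).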
